A study of Rattus norvegicus with 20 samples.

Results

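Of the 32545 genes counted in dissected rat cortical collecting ducts, 31 were taken here as genes of immune cells, by their symbols: 7 pan-leukocyte genes, 12 macrophage and monocyte genes, the 3 chains of complement C1q, the class II chaperone Cd74, 5 genes of T and NK cells and 3 of B cells. The ducts came from 20 male Sprague-Dawley rats aged 5 weeks, 1 rat per library. All of the rats, controls included, carried a minipump that released DDAVP, an agonist of the vasopressin V2 receptor, at 5 ng per hour. Controls received 25 mL of water per day in gelled food and water-loaded rats 50 mL. Kidneys were taken on day 1 (3 rats per treatment), day 2 (4 rats per treatment) and day 4 (3 rats per treatment). The titles and the design text name these 3 times, while the treatment text names only the last. Per the design text, the ducts were picked by hand from kidney that had been digested with collagenase, so no sort or gate had removed other cells, and the cDNA was amplified by a method made for single cells.

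A collecting duct is built of principal and intercalated cells, which are epithelium, and the kidney around it holds resident macrophages in contact with the tubules. Ptprc (CD45) is the phosphatase carried by nearly all leukocytes, Csf1r is the receptor through which macrophages receive the survival signals Csf1 and Il34, and the CD3 chains and the CD79 chains are parts of the antigen receptors of T and B cells. Cd74 is the chaperone of MHC class II molecules and C1q the first component of the classical complement pathway, which in most tissues is made chiefly by macrophages.

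Levels between libraries are given as CPM, counts scaled to library size by the TMM method, and levels between genes as the FPKM that the authors deposited, which divide by gene length. A library held 33527913 to 74868598 reads on genes. The libraries of control 1 and water-loaded 2 of day 1 differed from the rest, with TMM factors of 0.645 and 0.686. All 11 principal cell markers were above 3 counts in all 20 libraries. They summed to 15390 to 72666 CPM, against 75.5 to 1070 CPM for the 31 immune cell genes together. Markers of other kidney cells were found too. Proximal tubule markers summed to 61.9 to 8759 CPM, the highest in a water-loaded rat of day 1. Endothelial markers summed to 13.0 to 983 CPM, and fibroblast and pericyte markers to 6.65 to 1696 CPM. In libraries of whole ducts, fewer cells of a type and less RNA per cell cannot be told apart. Amplified reads carry no molecular identifiers, so the floors given for a count of 0 cover counting error only.

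Promoters are shown for C1qa and C1qb, near neighbours on the same strand whose levels parted between libraries, and for Cx3cr1, which was called between days. They run 5′ to 3′ on the minus strand from 250 bases before the start of the gene to 50 after it, from RefSeq on GRCr8, another build than the rn6 of the counts. C1qa lies at chr5:154419884-154420183, C1qb at chr5:154407778-154408077 and Cx3cr1 at chr8:128677017-128677316. Capitals mark GGAAGT or its reverse complement ACTTCC, letters that hold the GGAA core bound by factors of the ETS family such as PU.1.
C1qa: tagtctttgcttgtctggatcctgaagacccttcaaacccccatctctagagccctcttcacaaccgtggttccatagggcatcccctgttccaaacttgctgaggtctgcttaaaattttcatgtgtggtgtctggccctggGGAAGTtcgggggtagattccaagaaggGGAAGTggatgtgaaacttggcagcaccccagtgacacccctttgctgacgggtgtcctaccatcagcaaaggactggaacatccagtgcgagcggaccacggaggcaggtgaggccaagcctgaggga
C1qb: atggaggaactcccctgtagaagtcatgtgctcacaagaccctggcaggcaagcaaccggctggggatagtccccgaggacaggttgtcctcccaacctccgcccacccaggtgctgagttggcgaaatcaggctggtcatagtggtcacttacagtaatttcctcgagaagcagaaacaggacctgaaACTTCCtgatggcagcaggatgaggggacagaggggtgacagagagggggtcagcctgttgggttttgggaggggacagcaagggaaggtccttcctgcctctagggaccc
Cx3cr1: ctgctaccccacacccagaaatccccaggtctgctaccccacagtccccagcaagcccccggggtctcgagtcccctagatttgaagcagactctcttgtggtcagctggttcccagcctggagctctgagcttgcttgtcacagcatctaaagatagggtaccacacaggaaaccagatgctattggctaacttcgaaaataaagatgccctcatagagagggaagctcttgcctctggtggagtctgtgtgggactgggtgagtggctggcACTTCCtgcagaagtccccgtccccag

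Of the 31 genes, 24 had a promoter in the table of 33469. Both strands were searched for 6 motifs, some of which overlap. GGAAGT was present in 13 of the 24 (54.2%) and in 22.6% of all promoters, AGGAAGT in 8 (33.3%) and 8.41%, GAGGAAG in 8 (33.3%) and 12.4%, and GAGGAAGT in 1 (4.17%) and 2.42%. TGACTCA was present in 2 (8.33%) and 4.63%, and TGACGTCA in 0 (0%) and 1.83%. The motif in capitals and the promoters shown were chosen after these matches were seen. A match of this kind is a run of letters and was not tied to any difference in expression.

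Detection varied within each cell class. Of the 12 macrophage and monocyte genes, 3 had more than 3 counts in all 20 libraries and 2 had no count in any. Adgre1 was at 0 in 12 libraries and Cx3cr1 in 11. Among the lymphocyte genes, the CD3 chains Cd3e and Cd3d, Cd8a, Cd79b and Ms4a1 had a read in at most 3 of the 20. Cd79a had counts in all 20, Cd4 had more than 3 counts in 11, and Nkg7 was at 0 in 13. Of the 31 genes, 28 had at least 1 count somewhere, 18 had more than 3 counts in 10 or more libraries, and 8 had more than 3 counts in all 20: Cd74, Lyz2, Tyrobp, C1qc, C1qb, Cd14, Laptm5 and Csf1r. Cd163, a scavenger receptor of macrophages, Ccr2, the chemokine receptor of inflammatory monocytes, and Ms4a1 (CD20) of B cells had 0 counts in all 20 libraries, which allows up to 0.00284 CPM over the series. A count of 0 in 1 library allows 0.0414 to 0.0926 CPM. By median FPKM, the order was Cd74 (95.8), Lyz2 (40.7), Tyrobp (12.6), Fcer1g (12.04), C1qc (10.8), C1qb (9.72), Cd14 (6.52), C1qa (5.43), Coro1a (5.31), Laptm5 (4.04), Aif1 (3.68), Cd68 (3.45), Csf1r (2.81) and Cd79a (1.42). Cd74 had a mean of 158 ± 161 FPKM and Lyz2 of 51.4 ± 46.9 FPKM (SD, n = 20). Every neighbouring pair in this order differed in its medians by less than the larger of its SDs between libraries. The other genes had a median below 0.3 FPKM.

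**Figure D1:**
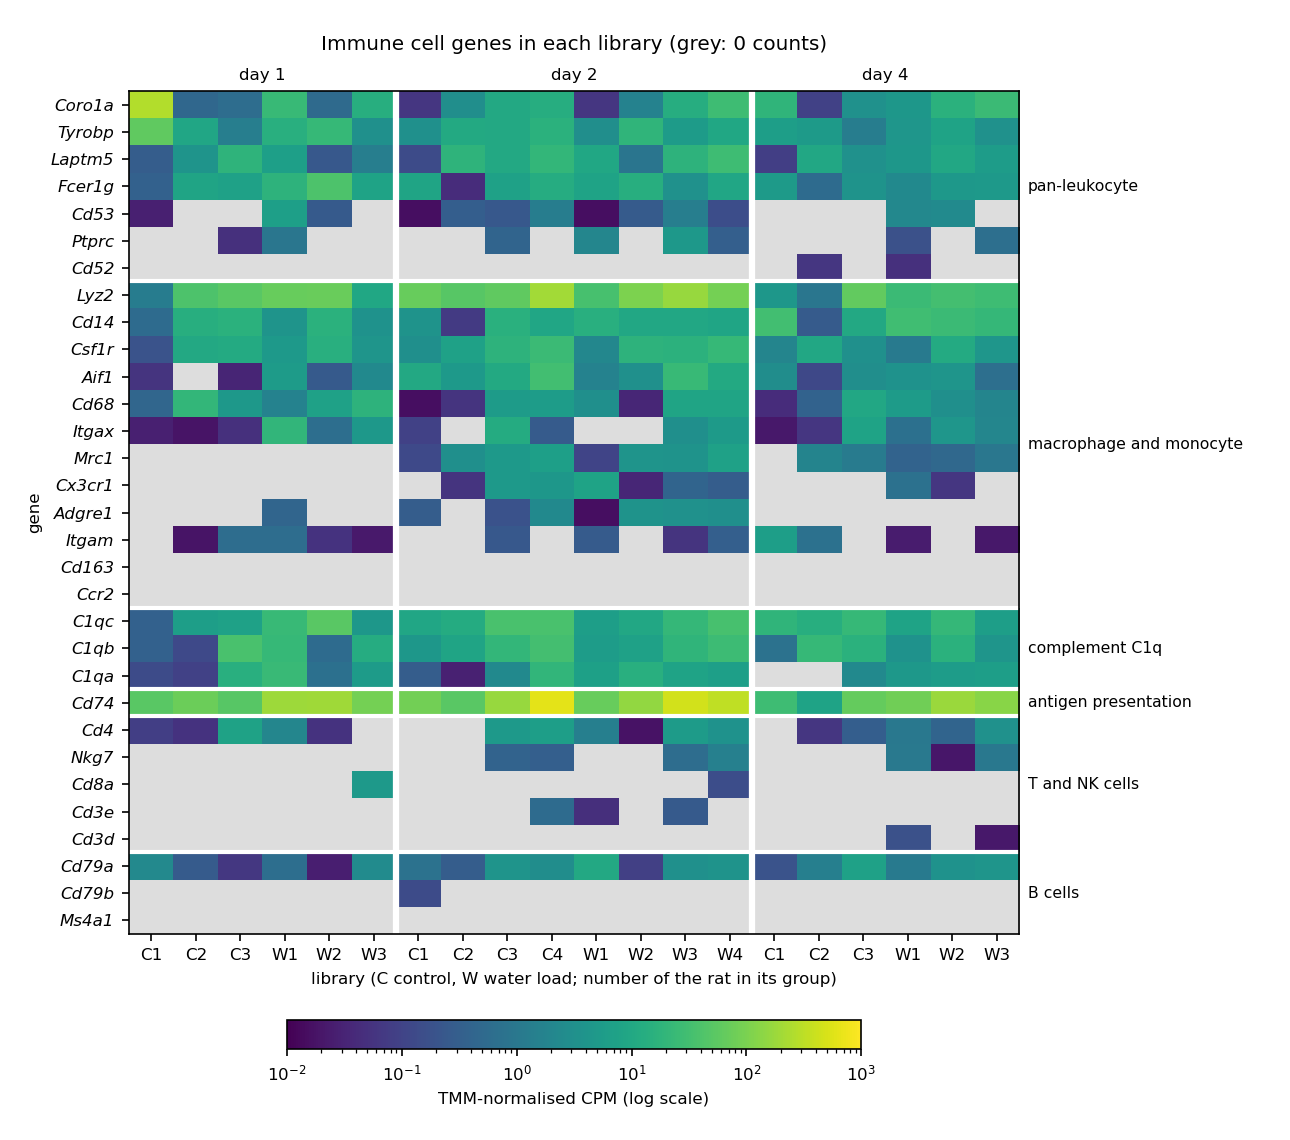
Level of each of the 31 immune cell genes (rows, by role) in each of the 20 libraries (columns, by day), in TMM-normalised CPM on a log colour scale, with 0 counts in grey. Cd74 and Lyz2 are the brightest rows, the rows grey throughout are Cd163, Ccr2 and Ms4a1, and Mrc1 and Cx3cr1 are grey in all 6 libraries of day 1.

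Among the pan-leukocyte genes, the adaptor proteins Tyrobp and Fcer1g and the lysosomal protein Laptm5 were found widely, while Ptprc itself was sparse. Values follow the order of the rats' numbers in each group. At day 1 Ptprc stood at 0, 0 and 0.0493 CPM in control rats and at 0.938, 0 and 0 CPM in water-loaded rats. At day 2 Ptprc stood at 0, 0, 0.408 and 0 CPM in control rats and at 1.98, 0, 4.63 and 0.322 CPM in water-loaded rats. At day 4 Ptprc stood at 0 in all 3 control rats and at 0.172, 0 and 0.679 CPM in water-loaded rats. Ptprc was at 0 in 12 of 20 libraries, and water-loaded rat 3 of day 2 held 50.4% of its summed CPM. Tyrobp ranged from 1.29 to 58.9 CPM, Fcer1g from 0.0427 to 39.3 CPM and Laptm5 from 0.0856 to 28.3 CPM. Cd53, a tetraspanin of leukocytes, was at 0 in 7 libraries and at 6.6 CPM in its highest, and Cd52 had 2 counts in each of 2 libraries and 0 in the other 18.

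Coro1a, a regulator of actin in leukocytes, was dominated by a single library. At day 1 Coro1a stood at 265, 0.458 and 0.624 CPM in control rats and at 22.98, 0.529 and 13.9 CPM in water-loaded rats. At day 2 Coro1a stood at 0.0623, 2.96, 10.5 and 13.2 CPM in control rats and at 0.0615, 1.68, 13.1 and 28.5 CPM in water-loaded rats. At day 4 Coro1a stood at 18.6, 0.0926 and 3.41 CPM in control rats and at 4.35, 15.6 and 25.7 CPM in water-loaded rats. Day 1 control 1, which stands apart in depth scaling, was 9.31 times as high as the next library and held 60.1% of the summed CPM of the gene. In that library Ptprc was at 0 and Lyz2 at 1.24 CPM.

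Lyz2, the lysozyme of macrophages, was the most abundant of the macrophage genes. At day 1 Lyz2 stood at 1.24, 40.4 and 53.03 CPM in control rats and at 69.1, 73.2 and 9.39 CPM in water-loaded rats. At day 2 Lyz2 stood at 67.5, 49.5, 61.5 and 202 CPM in control rats and at 35.3, 105, 171 and 88.4 CPM in water-loaded rats. At day 4 Lyz2 stood at 4.34, 0.926 and 64.1 CPM in control rats and at 25.2, 32.02 and 28.1 CPM in water-loaded rats. It ranged from 0.926 to 202 CPM, with its 5 lowest values all at days 1 and 4 and its 4 highest at day 2. On GRCr8 its neighbour is Lyc2, another lysozyme gene, and how reads shared by such copies were counted is not given in the sources used here, so the level of Lyz2 is uncertain.

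Csf1r, which marks macrophages and monocytes, was above 3 counts in every library. At day 1 Csf1r stood at 0.193, 10.3 and 11.2 CPM in control rats and at 4.78, 14.3 and 4.01 CPM in water-loaded rats. At day 2 Csf1r stood at 3.13, 7.11, 17.2 and 25.2 CPM in control rats and at 2.08, 16.8, 16.6 and 22.3 CPM in water-loaded rats. At day 4 Csf1r stood at 1.88, 10.1 and 3.26 CPM in control rats and at 1.15, 11.5 and 4.26 CPM in water-loaded rats. It was lowest in day 1 control 1, and the groups of treatments overlapped at all 3 days. Cd14, the coreceptor for bacterial lipopolysaccharide, was also present throughout. At day 1 Cd14 stood at 0.553, 13.4 and 15.5 CPM in control rats and at 3.88, 15.7 and 3.53 CPM in water-loaded rats. At day 2 Cd14 stood at 3.69, 0.0712, 15.02 and 8.98 CPM in control rats and at 14.2, 10.1, 9.89 and 8.54 CPM in water-loaded rats. At day 4 Cd14 stood at 30.4, 0.278 and 10.3 CPM in control rats and at 29.3, 25.9 and 21.02 CPM in water-loaded rats. Its 4 highest values all lay at day 4, but day 4 control 2 was at 0.278 CPM.

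Aif1, an actin-bundling protein of macrophages, and Adgre1 (F4/80), Mrc1 (the mannose receptor, CD206) and Cx3cr1 (the fractalkine receptor) are genes of tissue macrophages. At day 1 Aif1 stood at 0.0553, 0 and 0.0329 CPM in control rats and at 5.63, 0.265 and 2.38 CPM in water-loaded rats. At day 2 Aif1 stood at 10.5, 4.999, 10.8 and 30.3 CPM in control rats and at 1.62, 3.23, 23.7 and 11.02 CPM in water-loaded rats. At day 4 Aif1 stood at 2.82, 0.123 and 2.99 CPM in control rats and at 3.56, 4.08 and 0.659 CPM in water-loaded rats. Aif1 was at or below 0.0553 CPM in the 3 controls of day 1 and above 1.6 CPM in all 8 libraries of day 2. At day 1 Mrc1 was at 0 in all 6 libraries. At day 2 Mrc1 stood at 0.125, 3.06, 4.94 and 6.73 CPM in control rats and at 0.108, 3.85, 3.74 and 7.33 CPM in water-loaded rats. At day 4 Mrc1 stood at 0, 1.82 and 1.198 CPM in control rats and at 0.393, 0.484 and 0.947 CPM in water-loaded rats. No read of Mrc1 was counted at day 1, while all 8 libraries of day 2 had some. At day 1 Cx3cr1 was at 0 in all 6 libraries. At day 2 Cx3cr1 stood at 0, 0.05697, 4.79 and 4.46 CPM in control rats and at 8.05, 0.0347, 0.414 and 0.297 CPM in water-loaded rats. At day 4 Cx3cr1 stood at 0 in all 3 control rats and at 0.737, 0.0605 and 0 CPM in water-loaded rats. Cx3cr1 exceeded 1 CPM in 3 of the 8 libraries of day 2 and in none of the other 17. At day 1 Adgre1 stood at 0 in all 3 control rats and at 0.423, 0 and 0 CPM in water-loaded rats. At day 2 Adgre1 stood at 0.296, 0, 0.181 and 2.38 CPM in control rats and at 0.0154, 3.66, 3.399 and 3.12 CPM in water-loaded rats. At day 4 Adgre1 was at 0 in all 6 libraries. Adgre1 was above 2 CPM in 4 libraries, all of day 2.

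The integrin chains Itgam (CD11b) and Itgax (CD11c) and the lysosomal protein Cd68 varied widely between rats. Itgam was at 0 in 7 libraries, and day 4 control 1, at 6.48 CPM, held 68.4% of its summed CPM. Itgax ranged from 0 to 19.1 CPM and Cd68 from 0.0156 to 20.5 CPM.

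The 3 chains of C1q lie side by side in the genome, in the order C1qb, C1qc, C1qa on GRCr8, and the protein contains all 3, yet they were not seen in fixed proportion. At day 1 C1qa stood at 0.138, 0.0916 and 14.3 CPM in control rats and at 24.4, 0.688 and 5.601 CPM in water-loaded rats. At day 2 C1qa stood at 0.296, 0.0285, 2.39 and 19.9 CPM in control rats and at 6.801, 14.1, 7.99 and 6.74 CPM in water-loaded rats. At day 4 C1qa stood at 0, 0 and 2.36 CPM in control rats and at 4.59, 5.87 and 6.44 CPM in water-loaded rats. C1qa was at 0 in 2 controls of day 4 and had 2 counts in day 2 control 2, where C1qc had 833. At day 1 C1qb stood at 0.359, 0.128 and 37.1 CPM in control rats and at 22.1, 0.556 and 12.6 CPM in water-loaded rats. At day 2 C1qb stood at 4.44, 8.502, 20.1 and 32.4 CPM in control rats and at 5.71, 7.18, 18.4 and 26.5 CPM in water-loaded rats. At day 4 C1qb stood at 0.7703, 22.0 and 15.9 CPM in control rats and at 3.46, 15.6 and 4.14 CPM in water-loaded rats. C1qb was lowest in day 1 control 2, where C1qc stood higher. At day 1 C1qc stood at 0.359, 6.34 and 7.35 CPM in control rats and at 23.2, 52.8 and 4.38 CPM in water-loaded rats. At day 2 C1qc stood at 9.24, 11.9, 36.4 and 36.4 CPM in control rats and at 6.28, 10.1, 20.99 and 34.99 CPM in water-loaded rats. At day 4 C1qc stood at 19.02, 13.7 and 21.98 CPM in control rats and at 8.01, 21.1 and 6.402 CPM in water-loaded rats. C1qc was highest in day 1 water-loaded 2, in which C1qa and C1qb were below 1 CPM. Per length, C1qc was the highest chain in 12 libraries, C1qb in 4 and C1qa in 4. In the 17 libraries with more than 3 counts for each chain, the highest chain exceeded the lowest 1.14-fold to 94.4-fold in FPKM, with a median of 2.90, and over 10-fold in 4 of them.

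**Figure D2:**
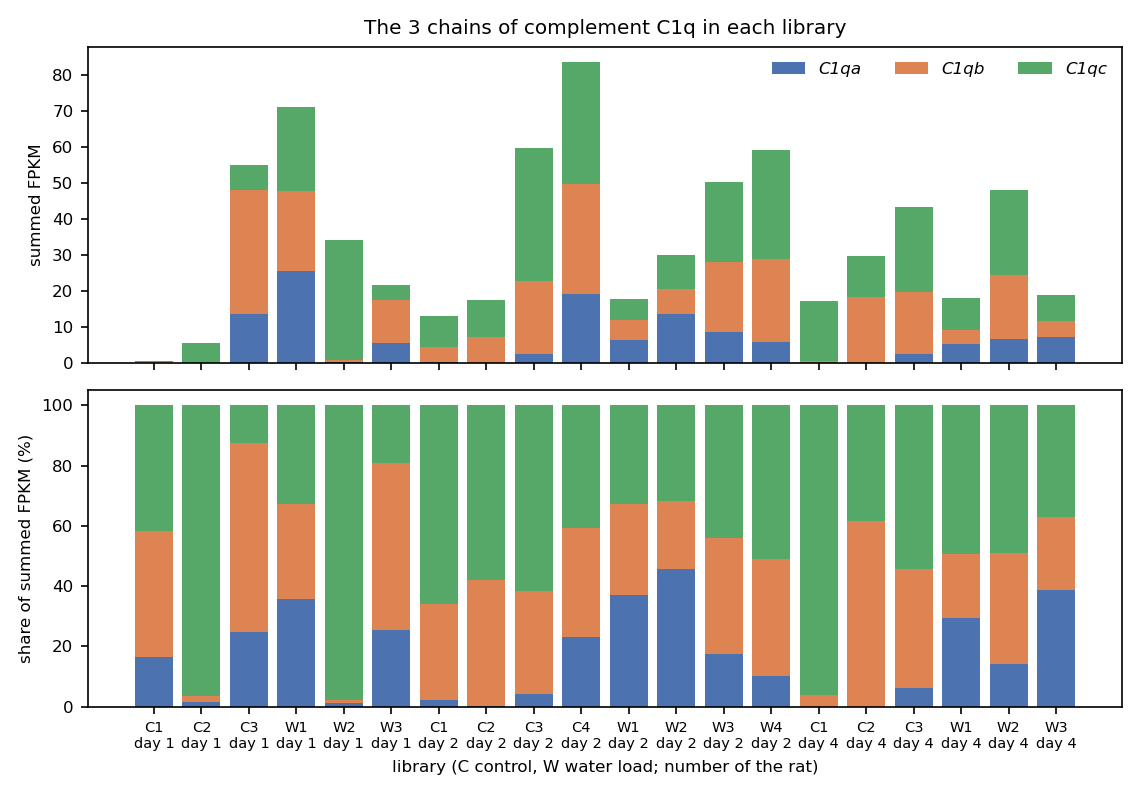
FPKM of the C1q chains in each library, stacked as a sum (top) and as a share of that sum in percent (bottom). C1qc makes up 97.6% of the sum in day 1 water-loaded 2, and the share of C1qa runs from 0 to 45.8%.

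Per length, Cd74 was the most abundant gene of the set in each of the 6 groups, by mean FPKM. At day 1 Cd74 stood at 52.0, 74.3 and 50.5 CPM in control rats and at 188, 197 and 89.6 CPM in water-loaded rats. At day 2 Cd74 stood at 85.04, 52.8, 172 and 622 CPM in control rats and at 68.3, 157, 460.1 and 326 CPM in water-loaded rats. At day 4 Cd74 stood at 27.8, 7.99 and 65.1 CPM in control rats and at 83.6, 179 and 128 CPM in water-loaded rats. The lowest value, in day 4 control 2, and the highest, in day 2 control 4, were both in controls. At days 1 and 4 the controls all lay below the water-loaded rats.

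Of the 5 genes of T and NK cells, the most widely found was Cd4, which rat macrophages also carry. Cd3e had 34 counts in day 2 control 4, 3 in day 2 water-loaded 1, 19 in day 2 water-loaded 3 and 0 in the other 17 libraries, and the highest of these was 0.551 CPM. Cd3d had 7 counts in 1 library and 1 in another. Cd8a had 226 counts in day 1 water-loaded 3, 97.1% of its summed CPM, where Cd3e and Cd3d were at 0, and 6 counts in 1 other library. Nkg7, of cytotoxic granules, was at 0 in 13 libraries and at 1.54 CPM in its highest, and Cd4 was above 3 counts in 11 libraries, at up to 7.58 CPM.

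Of the B cell genes only Cd79a passed the filter on low counts used for the tests. At day 1 Cd79a stood at 2.27, 0.275 and 0.0657 CPM in control rats and at 0.643, 0.0265 and 2.62 CPM in water-loaded rats. At day 2 Cd79a stood at 0.779, 0.299, 3.82 and 2.89 CPM in control rats and at 10.5, 0.0867, 3.25 and 3.76 CPM in water-loaded rats. At day 4 Cd79a stood at 0.193, 1.42 and 7.41 CPM in control rats and at 1.15, 3.55 and 3.99 CPM in water-loaded rats. It had counts in all 20 libraries (1 to 680), while Cd79b had 9 counts in 1 library and Ms4a1 none. On GRCr8, Cd79a lies between Rps19 and Arhgef1. Arhgef1 was at 28.7 to 328 CPM, and without the strand setting of the counting, reads of neighbours that overlap Cd79a could not be told from its own.

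The first comparison asked whether the genes differed between days 1, 2 and 4, with both treatments averaged. Mrc1, Aif1, Adgre1 and Cx3cr1, 4 macrophage genes, changed between days and were highest at day 2. The 23 of the 31 genes that passed a filter on low counts entered the test; Cd8a, Cd163, Cd79b, Cd52, Cd3d, Cd3e, Ms4a1 and Ccr2 did not. A sparse gene passes such a filter through the libraries in which it is high, so counts over the 23 are given as a description. The 4 were called among these 23, beside 8.33% of all 14472 genes tested. Mrc1 had a mean of 0 CPM at day 1, 3.74 at day 2 and 0.807 at day 4 (adjusted p = 0.00929, edgeR's quasi-likelihood F test). Aif1 was at 1.39, 12.02 and 2.37 CPM at these days (adjusted p = 0.0115). Adgre1 was at 0.0705, 1.63 and 0 CPM (adjusted p = 0.0287). Cx3cr1 was at 0, 2.26 and 0.133 CPM (adjusted p = 0.0294). Cd74, at 108.5, 243 and 81.95 CPM, did not pass (adjusted p = 0.0576), but it was called by DESeq2 (0.0113) and by edgeR with a minimum of 1 CPM in 3 libraries (0.0368).

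**Figure D3:**
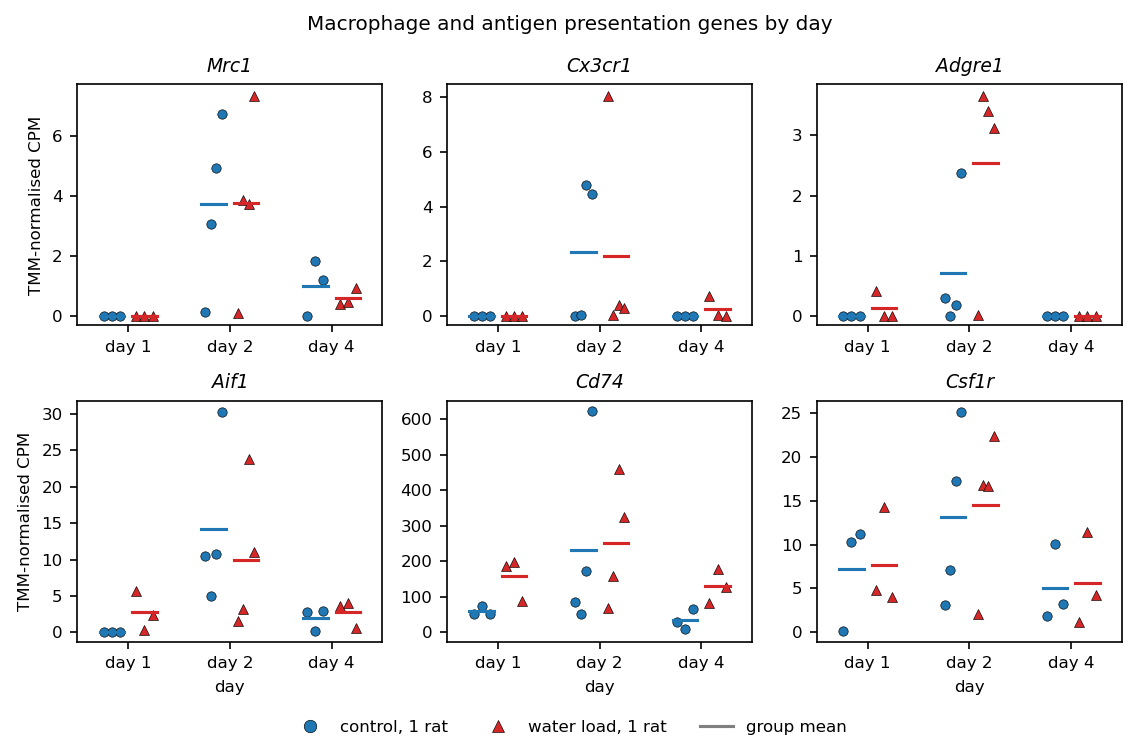
TMM-normalised CPM of 6 genes by day, 1 point per rat (circles, control; triangles, water load), with the group means as lines. Mrc1 and Cx3cr1 lie at 0 in all rats of day 1 and reach 7.33 and 8.05 CPM at day 2.

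The mean was highest at day 2 in 14 of the 23 genes (60.9%), against 30.7% of all genes tested. It was highest at day 1 in 7 genes (30.4%, against 39.5% of all genes): C1qa, Cd53, Cd68, Coro1a, Fcer1g, Itgax and Tyrobp. In Cd14 and Itgam it was highest at day 4 (8.7%, against 29.7% of all genes). With only the libraries numbered 1 and 2 kept at day 2, none of the 4 was called (adjusted p of 0.065 for Mrc1, 0.144 for Aif1, 0.136 for Adgre1 and 0.152 for Cx3cr1), and 786 genes in all were. With only those numbered 3 and 4, the 4 were called (0.0136, 0.0147, 0.0395 and 0.0377), with Cd74 (0.00655) and Nkg7 (0.0475) besides, of 24 genes that passed the filter. The share of all genes called in that fit is not given here, so these calls only describe the set. The call of Cx3cr1 was lost without the 2 day 1 libraries that stand apart (0.0566), as well as on leaving out 1 of 4 libraries: control 1 or water-loaded 2 of day 1, water-loaded 1 of day 2, or water-loaded 2 of day 4 (at up to 0.0563). Adgre1 was lost on leaving out control 4 of day 2, control 1 of day 4, or any 1 of the water-loaded rats of day 4 (at up to 0.0544). Of 8 endothelial markers, 2 were also called between days. Mrc1 and Aif1 were called without any 1 library, at up to 0.0252 and 0.0295. On log2(FPKM + 1), limma called only Aif1 (0.0147).

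The second comparison set the day 2 libraries numbered 3 and 4 against those numbered 1 and 2, within treatment. The numbers are those of the rats in each group, and the labels do not say what they stand for. This split was chosen with earlier results of these data known, and its values describe it. All 23 genes had a higher fitted level in rats 3 and 4, with a median log2 difference of 1.96, against 0.096 over all genes tested. On leaving out 1 library this median ran from 1.64 (without control 4) to 2.56 (without water-loaded 2). None was called by edgeR, where 0.345% of all genes were. The unadjusted p was under 0.05 in 6 genes: Cd74, Itgax, Nkg7, Cd4, Cd68 and C1qc. Here and below, counts at this cutoff are a description, as the share of all genes under it is not given beside them. DESeq2, which called 641 genes in all, called 4 of these 6 genes: Itgax (adjusted p = 2.82e-05), Cd74 (0.0046), Cd68 (0.00817) and Cd4 (0.0108).

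The groups of 4 did not overlap in 9 of the 23 genes, all higher in rats 3 and 4 (Aif1, C1qb, C1qc, Cd4, Cd68, Cd74, Coro1a, Itgax and Nkg7), beside 7.39% of all genes higher and 6% lower. Cd74 averaged 395 CPM in rats 3 and 4 against 90.9 in rats 1 and 2, a log2 difference of 2.16 (SE 0.55, adjusted p = 0.11 by edgeR), which fell to 1.54 without control 4. At day 2 Itgax stood at 0.0935, 0, 12.1 and 0.276 CPM in control rats and at 0, 0, 3.14 and 5.25 CPM in water-loaded rats. Itgax averaged 5.197 CPM in rats 3 and 4 against 0.0234 in rats 1 and 2. At day 2 Nkg7 stood at 0, 0, 0.393 and 0.324 CPM in control rats and at 0, 0, 0.622 and 1.54 CPM in water-loaded rats. Nkg7 was at 0 in all 4 rats numbered 1 and 2, so that it was at least 54.5-fold higher in rats 3 and 4, against a floor of 3 counts over the 4 libraries. At day 2 Cd4 stood at 0, 0, 4.98 and 6.27 CPM in control rats and at 1.42, 0.0173, 5.57 and 3.47 CPM in water-loaded rats. Cd4 averaged 5.07 against 0.358 CPM. At day 2 Cd68 stood at 0.0156, 0.05697, 5.45 and 5.75 CPM in control rats and at 3.08, 0.0347, 8.29 and 8.197 CPM in water-loaded rats. Cd68 averaged 6.92 against 0.796 CPM, and C1qc 32.2 against 9.37 CPM.

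**Figure D4:**
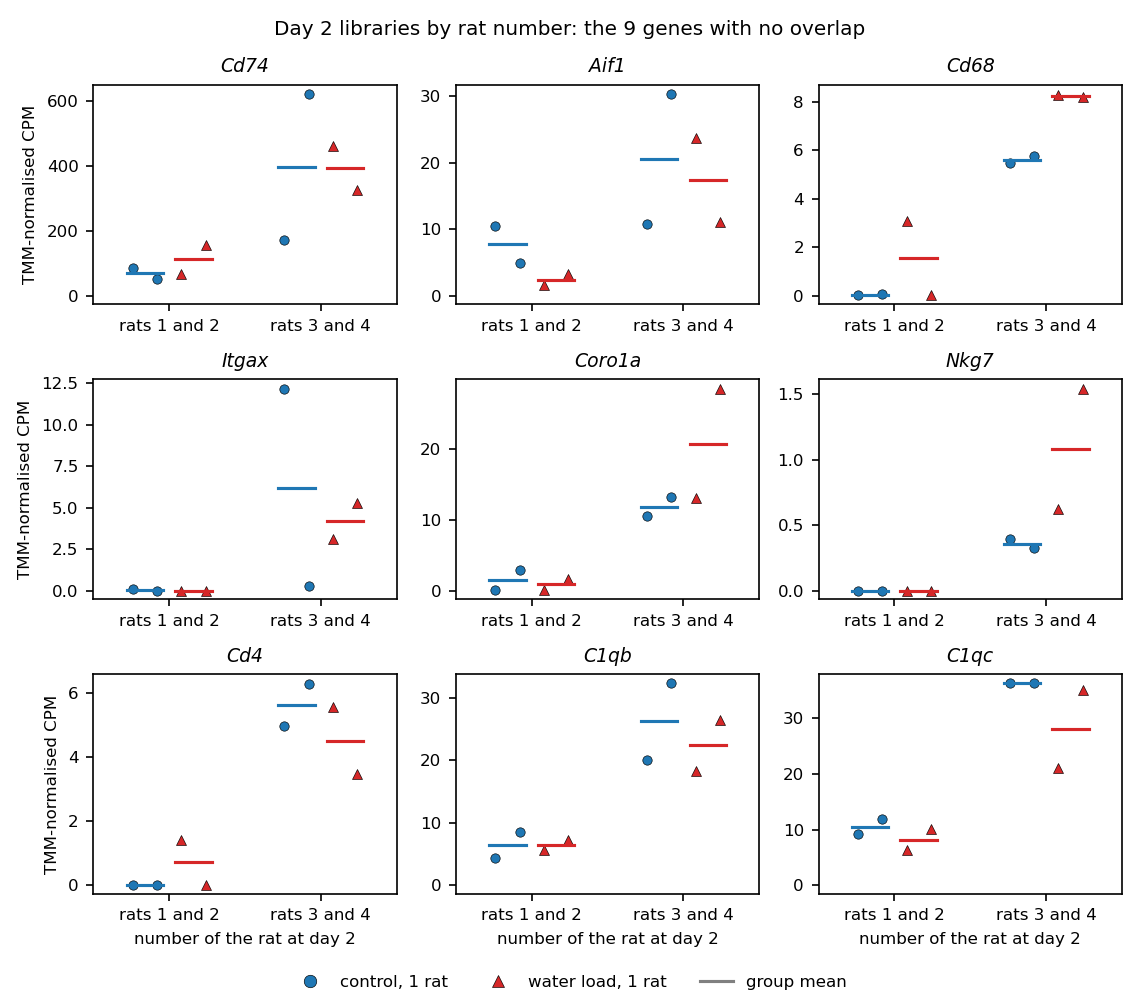
TMM-normalised CPM at day 2 of the 9 genes whose rats 1 and 2 did not overlap with rats 3 and 4, 1 point per rat (circles, control; triangles, water load), with the means of the 2 rats as lines. Cd74 lies between 52.8 and 157 CPM in rats 1 and 2 and between 172 and 622 CPM in rats 3 and 4.

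Among the controls of day 2 the mean was higher in rats 3 and 4 in 23 of 23 genes, and among water-loaded rats in 17 of 23. The share of all genes tested with a higher mean in rats 3 and 4 is not given here, so these counts only describe the set. The 6 exceptions among water-loaded rats were Tyrobp, Fcer1g, Cd14, Cx3cr1, C1qa and Cd79a. Cx3cr1 averaged 4.62 CPM in control rats 3 and 4 against 0.0285 in control rats 1 and 2, and 0.356 against 4.04 CPM in the water-loaded rats. A test of whether the water-load effect differed between the pairs of numbers called 0 of the 23 genes, where 0% of all genes were called; 1, Cx3cr1, had an unadjusted p under 0.05, and DESeq2 also called 0 of the 23. The median difference of the effect, -1.002 on the log2 scale, ran from -2.55 without control 2 to 0.37 without water-loaded 2, so its sign rests on 1 library.

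Other features of the libraries moved with the numbers. Rats 3 and 4 of day 2 had 14490 to 15266 genes detected and rats 1 and 2 had 13322 to 14373. The 8 endothelial markers had a summed level of 522 to 806 CPM in rats 3 and 4 against 58.4 to 295.4 in rats 1 and 2, all 8 fitted higher (median log2 difference 2.28, 0 called), and every one of them was above 3 counts in all 4 rats numbered 3 and 4. The 31 immune cell genes summed to 411 to 1070 CPM against 171 to 367. Of 17 proximal tubule markers 14 were fitted lower (median -1.26, 0 called), at 113 to 274 CPM against 187 to 2995, the last in control 1 alone. Of 6 fibroblast and pericyte markers 4 were fitted higher, and the principal cell markers were split, with 5 higher and 6 lower. The part of these features in the difference between the numbers was not tested.

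The third comparison asked what the water load changed. edgeR called no gene of the set at any day or over the days. At day 1, 14 of the 23 genes were fitted higher and 6 lower under water load, with a median log2 difference of 0.12 (0.51 over the 20 genes with a value when genes at 0 in 1 group are set at their bound), against 0 over all genes. The median ran from 0 without water-loaded 1 to 1.30 without control 3 of that day, and was 1.08 with the number as a block. edgeR called 0 of them, beside 0% of all genes, with 4 at an unadjusted p under 0.05 (Aif1, Cd53, Itgax and C1qc). DESeq2, which called 1126 genes in all, called Aif1, Cd53 and Itgax. Aif1 averaged 2.76 CPM in water-loaded rats and 0.0294 in controls (log2 difference 6.49, SE 1.73, adjusted p = 0.189 by edgeR, and 0.000114 by DESeq2). At day 1 Cd53 stood at 0.0276, 0 and 0 CPM in control rats and at 6.60, 0.265 and 0 CPM in water-loaded rats. At day 1 Itgax stood at 0.0276, 0.0183 and 0.0493 CPM in control rats and at 19.1, 0.635 and 4.62 CPM in water-loaded rats. The 3 genes with no overlap at day 1 were Aif1, Cd74 and Itgax, all higher under water load, beside 5.71% of all genes higher and 5.17% lower.

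At day 2, 15 genes were fitted higher and 8 lower, with a median of 0.14 against -0.05 over all genes. That median changed sign with the libraries kept: it was -0.16 without control 1 and 0.74 without control 4, 0.74 with only rats 1 and 2 of day 2 and -0.10 with only rats 3 and 4, and 0.39 with the number as a block. edgeR and DESeq2 called 0 of them, beside 0% of all genes by edgeR, and no gene had an unadjusted p under 0.05. No gene of the 23 separated the treatments, beside 2.35% of all genes higher and 1.88% lower. The smallest unadjusted p values belonged to Ptprc, Adgre1, Cd79a and Nkg7. Ptprc averaged 1.73 CPM under water load and 0.102 in controls (log2 difference 4.06, SE 2.55, adjusted p = 1).

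At day 4, 15 genes were fitted higher and 7 lower, with a median of 0.31 (0.40 over the 22 genes with a value at the bounds) against 0 over all genes. It ran from 0.14 without water-loaded 2 to 0.81 without control 3 of that day, and was 1.95 with the number as a block. edgeR and DESeq2 called 0 of the 23, beside 0% of all genes by edgeR, and 4 had an unadjusted p under 0.05 (Cd53, Cd74, Itgam and Nkg7). Cd74 averaged 130 CPM under water load against 33.6 in controls (log2 difference 1.95, SE 0.82, adjusted p = 0.674 by edgeR). At day 4 Cd53 stood at 0 in all 3 control rats and at 2.14, 2.52 and 0 CPM in water-loaded rats. At day 4 Nkg7 stood at 0 in all 3 control rats and at 1.03, 0.0202 and 0.988 CPM in water-loaded rats. With controls at 0, Cd53 was at least 67.9-fold and Nkg7 at least 29.1-fold higher, against a floor of 3 counts over the 3 controls, although 1 water-loaded rat also had no read of Cd53. At day 4 Itgam stood at 6.48, 0.741 and 0 CPM in control rats and at 0.0246, 0 and 0.0206 CPM in water-loaded rats. C1qa, Cd4, Cd74 and Nkg7 did not overlap, all higher under water load, beside 7.93% of all genes higher and 6.73% lower.

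Over the 3 days together, 17 of the 23 genes were fitted higher and 6 lower, with a median log2 difference of 0.51, against 0.01 over all genes. It ran from 0.41 without control 2 of day 2 to 1.18 without control 3 of day 4, and was 1.24 with the number as a block. edgeR called 0 of the 23, where 0.159% of all genes were called, and 4 had an unadjusted p under 0.05. DESeq2, which called 708 genes in all, called Cd53 (adjusted p = 0.00532) and Aif1 (0.0372). Aif1 had a log2 difference of 2.15 (SE 0.78, adjusted p = 0.228 by edgeR) and Cd74 of 1.17 (SE 0.45, adjusted p = 0.249). Cd53 and Ptprc also had an unadjusted p under 0.05, but each was at 0 in all rats of 1 group, so that their fitted folds depend on the prior count. Nkg7, Cx3cr1, Adgre1 and Mrc1 were at 0 in all rats of 2 or 3 groups, with standard errors of 620 to 6468. These genes could not be called here, and the signs of their fitted differences carry no meaning. They are still counted in the 17 and the 6, in the median and in the 23. The test of whether the water-load effect differed between days called 0 of the 23, beside 0% of all genes, with Aif1 and Cd53 at an unadjusted p under 0.05. DESeq2 called Aif1 there (adjusted p = 0.0333), 1 of 193 genes.

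Other immune cell genes were taken from lists. Of 21 tested other leukocyte genes, 16 were fitted higher in rats 3 and 4 of day 2, of 19 other macrophage genes 14, and of 9 MHC class II genes all 9 (median log2 differences 3.03, 1.91 and 1.53), with 0 called in each. Of 9 class I genes and their partners, all 9 were fitted higher (median 1.13, 0 called). The summed level of the other leukocyte genes was not higher in these rats, at 500.3 to 583 CPM against 534 to 674 in rats 1 and 2. By mean CPM at day 2, Ucp2 made up most of this sum. The other macrophage genes, where Lgmn made up most of the sum, summed to 405 to 599 against 194 to 414 CPM. These 2 sums thus mainly follow 1 gene each. The class II genes summed to 109.9 to 290.5 against 30.9 to 74.9 CPM, and the class I genes and their partners to 2003 to 2195 against 874 to 1349 CPM. The class II beta chain RT1-Bb, a partner of the Cd74 product, is an example. At day 1 RT1-Bb stood at 156, 7.33 and 11.1 CPM in control rats and at 16.9, 1.03 and 7.08 CPM in water-loaded rats. At day 2 RT1-Bb stood at 31.5, 12.3, 29.96 and 88.4 CPM in control rats and at 10.1, 18.2, 32.2 and 47.2 CPM in water-loaded rats. At day 4 RT1-Bb stood at 32.8, 2.38 and 17.9 CPM in control rats and at 11.6, 42.9 and 32.98 CPM in water-loaded rats. Its highest value lay in day 1 control 1, and its highest at day 2 in control 4, where Cd74 also peaked. Of 17 other T and NK cell genes 10 passed the filter, with a summed level of all of the list of 0.249 to 53.3 CPM, of 10 B and plasma cell genes 4, of 11 neutrophil genes 3 and of 8 mast cell genes 0. The neutrophil genes S100a9 and Mpo, the T cell gene Cd3g, the B cell gene Pax5 and the macrophage receptors Marco and Vsig4 were at 0 in all 20 libraries.

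Between days, 2 of the 21 other leukocyte genes, 2 of the 19 other macrophage genes, 0 of the 9 class II genes, 1 of the 9 class I genes, 1 of the 10 T and NK cell genes and 2 of the 4 B and plasma cell genes were called by edgeR, beside 8.33% of all genes. The shares of the leukocyte, macrophage, class I and T and NK cell lists, 9.52%, 10.5%, 11.1% and 10%, were near that background. The called genes did not share a direction, and most of the calls depended on single libraries. Of 20 fits that each left out 1 library, the call was lost in 16 for Fcgr2b, 16 for Tapbp, 14 for Il2rb, 10 for Lgmn, 8 for Spi1 and 2 for Mzb1, and for Cd38 in 3 of the 17 in which it was tested. Ucp2 was called in all 20, at an adjusted p of up to 0.0125. Fcgr2b, an inhibitory Fc receptor, averaged 1.05 CPM at day 2 and was at 0 in all libraries of days 1 and 4 (adjusted p = 0.0474, and 0.169 by DESeq2). Within day 2 it was at 0 in all 4 rats numbered 1 and 2 and at 1.75 CPM or more in rats 3 and 4. Spi1, which encodes PU.1, a transcription factor of macrophages, went the other way, from 2.97 CPM at day 1 to 0.11 at day 2 and 0.0942 at day 4 (adjusted p = 0.0352). Ucp2, a mitochondrial carrier, fell from 565 CPM at day 1 to 352 and 226 (0.00371), and Lgmn, a lysosomal protease, rose from 146 to 259 and 293 CPM (0.035). Tapbp, which loads class I molecules, was at 42.1, 57.7 and 125 CPM (0.0495), Il2rb, an interleukin receptor chain, at 0.00274, 4.07 and 1.40 (0.0383), Cd38 at 0, 1.16 and 0.00514 (0.0278) and Mzb1, of plasma cells, at 0, 0.00192 and 0.762 (0.0194).

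Of the ligands of the receptors in the set, 4 of 6 passed the filter, and only Il34, a ligand of Csf1r, was called. At day 1 Il34 stood at 0 in all 3 control rats and at 3.35, 0.185 and 3.42 CPM in water-loaded rats. At day 2 Il34 stood at 10.4, 10.8, 4.14 and 15.6 CPM in control rats and at 5.23, 14.95, 7.45 and 11.4 CPM in water-loaded rats. At day 4 Il34 stood at 1.22, 6.57 and 7.12 CPM in control rats and at 10.3, 14.2 and 4.796 CPM in water-loaded rats. Il34 averaged 1.16, 9.999 and 7.36 CPM at days 1, 2 and 4 (adjusted p = 0.00143), a call made in all 20 fits that left out 1 library (at up to 0.00539). Over the days it was fitted higher under water load (log2 difference 3.62, SE 0.71, adjusted p = 0.0493, edgeR's quasi-likelihood test), but this call was lost in 19 of the 20 (adjusted p up to 0.146) and held only without water-loaded 2 of day 1 (0.019). It was also lost with the number as a block (0.308), with only rats 1 and 2 (0.235) or 3 and 4 (0.315) of day 2, with DESeq2's size factors (0.0526), without the filter (0.0658) and by limma on log2(FPKM + 0.1) (0.271) and on log2(FPKM + 1) (0.418). DESeq2 made it (1.82e-05), as did edgeR with a minimum of 1 CPM in 3 libraries (0.0423) and without the 2 day 1 libraries that stand apart (0.0311). Its controls of day 1 were all at 0, so that this fitted difference depends on the prior count, and at day 2 the treatments overlapped. At day 2 it averaged 9.65 CPM in rats 3 and 4 and 10.3 in rats 1 and 2. Csf1, the other ligand of Csf1r, stood at 0 to 9.38 CPM, Cx3cl1, the ligand of Cx3cr1, at 5.88 to 301 CPM, and Ccl2, a ligand of Ccr2, was at 0 in 14 libraries.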

How the data were processed

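Read counts and FPKM of 32545 genes, a column for each rat, were deposited by the authors. Tools in the submitters' processing notes are HTSeq, SAMtools, STAR 2.4.0.1 and Trimmomatic 0.32, with rn6 as the build; which annotation was used and how strand was handled: not given in the sources used here. Lines that name no gene, 5 in all, held 31.45% to 35.61% of the counts of a library and were left out. The members and lists were chosen with earlier results of these data known.

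The main test was that of edgeR 4.0.16 (R 4.3.3): filterByExpr on group (14472 genes), TMM factors, and 1 robust quasi-likelihood fit over all 20 libraries with a mean per group (at day 2, for the comparison of numbers, a mean per treatment and pair of numbers). P-values were adjusted by the Benjamini-Hochberg method over every gene that passed the filter, and genes below 0.05 were called. The script was checked on simulated data. Alternatives used DESeq2 1.42.0, other size factors and filters, limma 3.58.1 on log2(FPKM + 1) and log2(FPKM + 0.1), fewer libraries, and the number as a block.

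Values in each library were given for genes called in a comparison, 1 gene per cell class (Ptprc, Csf1r, Cd163, Cd3e, Cd79a and Cd74), the 6 genes of highest mean CPM, and for the comparison concerned up to 4 genes of smallest unadjusted p, and of the other lists for up to 3 called genes by name. RT1-Bb and the genes named as being at 0 or at their highest in 1 library were chosen after their values were seen. A replicate is 1 rat.

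Whether the numbers pair rats was checked by correlating deviations from the group means across genes. At day 2 the same-numbered rats correlated at 0.148, 0.147, 0.154 and 0.236, all over 0.1. Rats 1 and 2 also correlated with each other across treatments (0.11 and 0.123), as did rats 3 and 4 (0.188 and 0.204), while all correlations between these 2 sets were negative. Deviations from a group mean cancel within the group, so the negative values largely follow from the positive ones and are not separate support. The correlations thus part rats 1 and 2 from rats 3 and 4 and do not show that single rats were paired. At days 1 and 4 the same-numbered rats lay between -0.0907 and 0.0595. Results are from the fit without the block unless the block is named.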

Additional observations from a re-analysis of the deposited data

Results flagged for a closer look

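In the groups of 4 rats at day 2, 9 of the 46 group values of the 23 genes tested had a highest or lowest rat whose gap to the nearest other rat, divided by the range of the group, passed the 95% critical value of Dixon's ratio. That value gives about 1 flag in 20 groups by chance for normal values. Many values here are 0, and a group with 3 rats at 0 and 1 above it, as for Ptprc and Itgam among the controls, has a ratio of 1 by construction, so the number of flags was not compared with chance. In control 3 the ratio was 1 for Ptprc, 1 for Itgam and 0.977 for Itgax, each the highest of its group. In control 4 it was 0.876 for Adgre1, 0.881 for Lyz2 and 0.881 for C1qa, again the highest. In water-loaded rat 1 it was 0.953 for Cx3cr1, the highest, and 0.852 for Adgre1, the lowest, and in water-loaded rat 2 it was 0.83 for C1qa, the highest.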

How the results depend on the processing

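Under the alternatives, single genes were compared by their side of the threshold and, where the test has a direction, by direction as well. Medians were compared by size alone: a shift below 1.13 in log2, the pooled SD between libraries of a group, counted as the same. The changes of sign of the day 2 water-load median given above therefore count as the same. By these rules 1091 values stayed the same, 8 passed the threshold newly and 128 lost it (most of them the other list genes called between days and Il34). A further 5, all of them medians, moved, and 1 value of a single gene reversed. Of the counts of called or detected genes and the levels, 397 kept near their value and 64 did not. The cause was not tested. By edgeR, 23 genes of all tested were called for the average water-load effect, 1205 between days, 50 between the numbers at day 2 and 0 in each other comparison. DESeq2 called 1126 genes for water load at day 1, 77 at day 2, 319 at day 4, 708 on average, 193 for its difference between days, 2460 between days, 641 between the numbers and 70 for its difference between them, and among the immune cell genes 3 at day 1, 2 on average, 1 for the difference of the water-load effect between days, 4 between the numbers and 5 between days (Adgre1, Aif1, Cd74, Cx3cr1 and Mrc1), against 4 by edgeR. limma on log2(FPKM + 1) called 3 genes at day 1, 1 at day 4 and 191 between the numbers, and 1 immune cell gene between days; on log2(FPKM + 0.1) it called 13 genes on average, 1 for the difference between days of the water-load effect and 168 between the numbers, and 2 immune cell genes between days. The replicate block left 5 genes on average, and Il34 lost its call (adjusted p = 0.308 by edgeR). It was fitted only for the water-load comparisons, in which the main fit called none of the 31 immune cell genes. The block thus had no call of theirs to lose, and it added none. A minimum of 1 CPM in 3 libraries gave 44 genes on average and 78 between the numbers, DESeq2's size factors in edgeR 33 between the numbers, and leaving out both day 1 libraries that differ from the rest 311. Splits by number were chosen after seeing the data: with rats 1 and 2 alone at day 2, 1 gene was called on average and 786 between days, with 0 of the immune cell genes, and with rats 3 and 4 alone 3 on average. Leaving out 1 library gave 0 to 9 genes at day 1, 6 to 37 on average, 0 to 3 for the difference of the effect between days, 751 to 1209 between days, with 2 to 6 immune cell genes, and 9 to 112 between the numbers. For Cd68, the difference of the day 2 water-load effect between the pairs of numbers ran from -5.88 to 0.63 (log2), the last without water-loaded rat 1. With 3 or 4 rats per group and counts of 0 in many libraries, many sparse genes had standard errors of several log2 units. Where whole groups were at 0, some fits gave no usable estimate. For Nkg7 the standard error was 6468 for the average water-load effect. It was 2423 for the difference of the day 2 effect between the pairs of numbers. Adgre1, Ptprc and Itgam did not pass the filter of the limma fits and have no value there, nor has Itgam with the minimum of 1 CPM, and no block could be fitted for the comparison of the numbers, which it would absorb, nor was it used between days.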
